A study of Mus musculus with 12 samples.

Results

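The expression of 10 genes was followed, 8 secreted Wnt inhibitors, the Wnt ligand Wnt5a and the Wnt-responsive gene Axin2. They were picked by gene symbol, with earlier results of these data known, and all 10 were found among the 55536 genes measured. RNA sequencing was performed on the stromal vascular fraction (SVF), the non-adipocyte cells of fat, from inguinal depots of male C57BL6/J-129SV mice kept at room temperature. The groups were 12-month-old Pdgfrb-KO mice, 12-month-old control mice and 2-month-old control mice, with 4 libraries in each group and 1 mouse per library. In the Pdgfrb-KO mice a tamoxifen-activated Cre driven by the Sma promoter (Sma-CreERT2) deleted a floxed Pdgfrb, the receptor tyrosine kinase for PDGF ligands, so that cells without Sma promoter activity kept the gene. The labels call both control groups wild type, while the study describes its controls as carrying the same Cre with a fluorescent reporter. The study calls the sequenced Pdgfrb-KO mice tamoxifen-induced but does not say this of the sequenced controls. If these controls had no tamoxifen, it could not be told apart from genotype. The study's results name SVF as the sequenced material, while its sequencing methods speak of RNA from the inguinal fat depot. Its isolation steps for SVF cells end with plating, and whether the sequenced cells were plated is not given in the sources used here.

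Wnt proteins bind Frizzled receptors and their co-receptors Lrp5 and Lrp6 at the cell surface, which stabilises β-catenin and lets it act with TCF/LEF factors on target genes. Secreted inhibitors act before this step. The secreted Frizzled-related proteins (Sfrp1, Sfrp2, Sfrp4, Sfrp5 and Frzb) carry a cysteine-rich domain like that of the Frizzled receptors and bind Wnts, Wif1 binds Wnts through another domain, and Dickkopf proteins such as Dkk2 bind Lrp5 and Lrp6. Wnt/β-catenin signalling is known to restrain adipogenesis, and Wnt10b is a well-known example of a ligand that does so.

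Each value is a normalized count, that is, a read count divided by a size factor for its library and rounded. Deposited totals were 19620000 to 21870000 normalized counts per library. The estimated read counts behind them were 13780000 to 16910000 in Pdgfrb-KO replicates 1 to 3, below the 20950000 to 29010000 in 12-month controls and 21370000 to 24840000 in 2-month controls. For Pdgfrb-KO replicate 4 the estimate was 19970000, but a value 2 times as large was not tested. Pdgfrb itself had 1882, 2145, 1707 and 1749 normalized counts in Pdgfrb-KO libraries, against 3000, 4380, 3258 and 2399 in 12-month controls, with no overlap (log2 difference -0.77, SE 0.166, limma adjusted p = 0.016, two-sided exact permutation p = 0.0286, the smallest that 4 against 4 libraries allow). It was reduced and not lost in these bulk libraries. Of 18 markers of fibroblastic progenitors, the cells known to supply most stromal matrix, 0 were at 0 in any group. Of 10 markers of mature adipocytes, which a stromal fraction should hold few of, 0 were at 0 either, with Adipoq at 322 to 485 normalized counts in Pdgfrb-KO, 311 to 453 in 12-month controls and 121 to 150 in 2-month controls. In bulk samples, fewer cells of a type and less RNA per cell cannot be told apart.

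The sequence around the annotated start is shown for Sfrp2, the most abundant member, and for Frzb and Axin2, since these are the 3 members that were lower in 12-month than in 2-month controls. Each runs 5′ to 3′ on the gene's own strand, from 250 bases before the RefSeq start to 50 bases from it (build GRCm38.p6), with matches to CTTTGA (a TCF/LEF core) and GGGCGG (a GC box) in capitals on either strand.
Sfrp2, chr3:83766071-83766370, plus strand: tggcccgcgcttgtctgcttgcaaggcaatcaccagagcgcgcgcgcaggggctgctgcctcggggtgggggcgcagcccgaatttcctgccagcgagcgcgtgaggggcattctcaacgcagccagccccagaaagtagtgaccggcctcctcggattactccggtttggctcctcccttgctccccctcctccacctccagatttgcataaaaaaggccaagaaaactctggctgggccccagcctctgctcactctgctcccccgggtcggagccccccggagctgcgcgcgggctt
Frzb, chr2:80447347-80447646, minus strand: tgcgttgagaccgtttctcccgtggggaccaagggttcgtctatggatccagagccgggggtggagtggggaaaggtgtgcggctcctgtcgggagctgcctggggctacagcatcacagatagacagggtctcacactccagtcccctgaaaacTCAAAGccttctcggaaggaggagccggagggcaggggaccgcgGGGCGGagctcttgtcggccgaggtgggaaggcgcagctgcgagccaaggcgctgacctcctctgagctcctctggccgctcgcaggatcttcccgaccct
Axin2, chr11:108920099-108920398, plus strand: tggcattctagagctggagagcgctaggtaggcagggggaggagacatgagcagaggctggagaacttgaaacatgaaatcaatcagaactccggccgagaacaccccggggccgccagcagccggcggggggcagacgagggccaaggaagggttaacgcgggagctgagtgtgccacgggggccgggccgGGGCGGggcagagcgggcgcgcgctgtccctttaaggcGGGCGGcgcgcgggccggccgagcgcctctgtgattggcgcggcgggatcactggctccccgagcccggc
The Frzb window held 1 CTTTGA match and 1 GC box, and the Axin2 window held 2 GC boxes and 0 CTTTGA matches. The Sfrp2 window held neither. For Frzb, the start in GENCODE, which gives the gene coordinates used here, is at 80447625, upstream of the RefSeq start. Both Frzb matches lie downstream of that GENCODE start. Among 32851 promoter windows of the same length, 16% held CTTTGA and 35.7% held a GC box, and TATAAA, which 13.6% held, was in none of these 3 windows. The letters do not overlap between these motifs as matched here, and a match describes the letters only. The windows were rich in CpG, with 22 in Sfrp2, 20 in Frzb and 31 in Axin2, against a median of 7 over all windows. RefSeq windows were matched for 6 of the 10 members, also Sfrp5, Dkk2 and Wif1.

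The first question was how these genes differed between 12-month and 2-month controls. Sfrp2, Frzb and Axin2 were lower at 12 months, and 0 of the members tested were higher. This was 3 of 9 members tested, beside 11.4% of 16399 genes that were lower, 11.3% that were higher and 22.7% that passed in either direction at an adjusted p under 0.05. The same 3 members had groups that did not overlap, beside 12.5% of all genes lower without overlap and 24.8% in either direction. The second question was how Pdgfrb-KO SVF differed from 12-month control SVF. Here Sfrp2 and Sfrp4 were lower and again 0 members were higher, 2 of 9 members tested beside 4.46% of 16344 genes lower, 4.96% higher and 9.42% in either direction. These 2 members also had groups that did not overlap, beside 8.06% of all genes lower without overlap and 17.1% in either direction. The median log2 difference of the 9 members was -0.30 for age and -0.29 for Pdgfrb-KO, against -0.01 over all genes in both. Wif1 was too low to test in either. The 12-month control libraries serve in both comparisons, so these are not independent of each other. In total, 133 of 15989 genes tested in both (0.832%) were lower in both, and Sfrp2 was the only member among them.

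**Figure D1:**
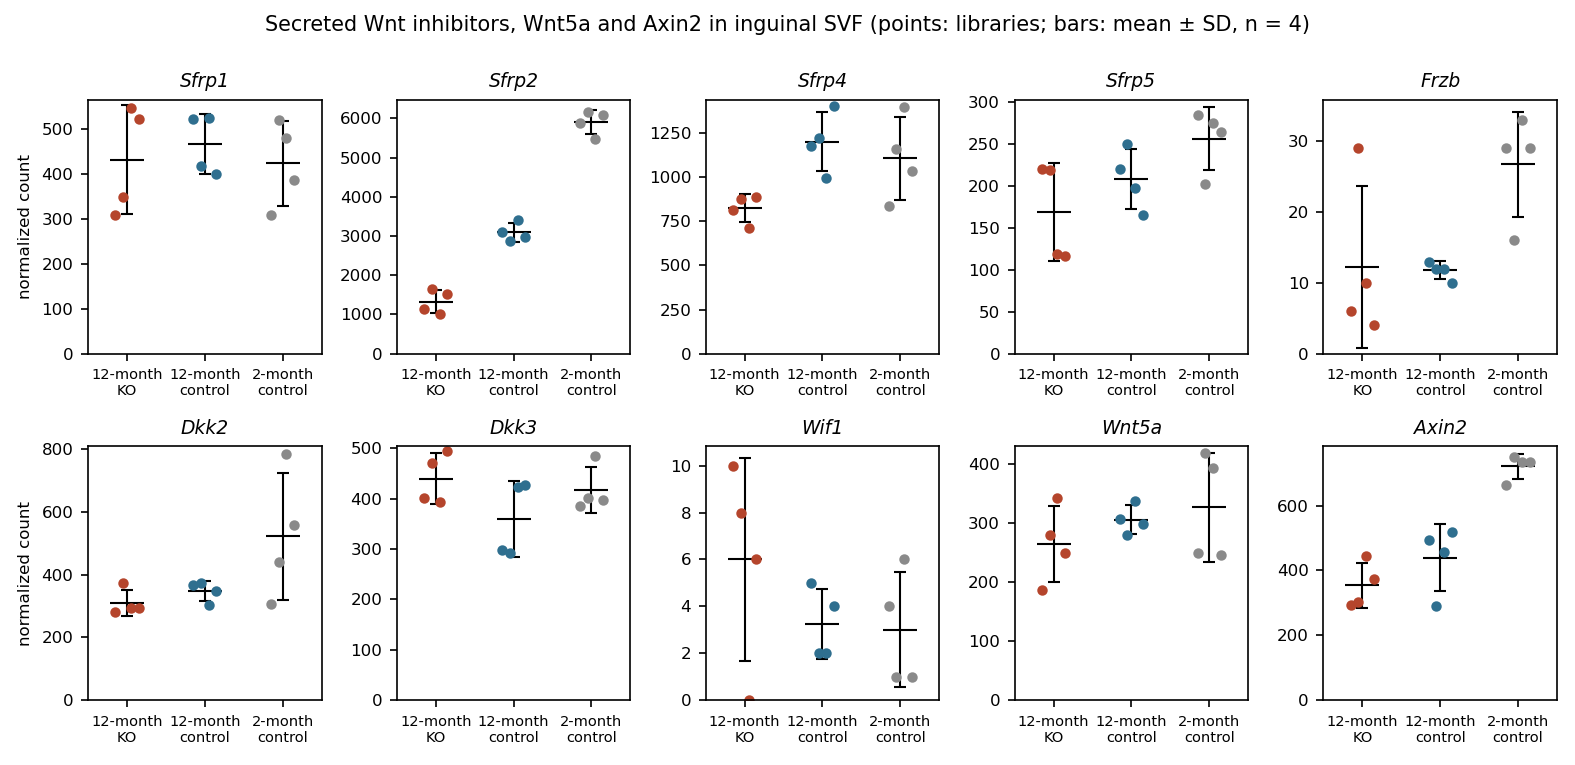
Normalized counts (vertical axes, from 0) of the 10 members in each library of the 3 groups (horizontal axes), with a point per library and a bar for mean ± SD (n = 4). Sfrp2 falls into 3 separate ranges, 1022 to 1648 in Pdgfrb-KO, 2880 to 3415 in 12-month controls and 5481 to 6158 in 2-month controls, while Axin2 separates 2-month controls from both 12-month groups.

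Sfrp2 (ENSMUSG00000027996, GRCm38 chr3:83766321-83774316, plus strand) encodes a secreted Frizzled-related protein that is abundant in stromal fibroblasts. It had 1128, 1648, 1022 and 1522 normalized counts in Pdgfrb-KO libraries, 3112, 2880, 3415 and 2969 in 12-month controls, and 5894, 6158, 5481 and 6097 in 2-month controls. The 3 groups did not overlap, and every Pdgfrb-KO library lay below every control library. Sfrp2 averaged 3094 ± 234 normalized counts in 12-month controls and 5908 ± 306 in 2-month controls (SD, n = 4 each), which was 1.91-fold lower at 12 months (log2 difference -0.93, SE 0.0863, limma adjusted p = 3.46e-05). In Pdgfrb-KO it averaged 1330 ± 302, which was 2.37-fold lower than in 12-month controls (log2 difference -1.24, SE 0.154, 95% confidence interval -1.58 to -0.91, limma adjusted p = 0.000992). The largest difference was therefore between Pdgfrb-KO and 2-month controls, groups that differ in both genotype and age, at 4.52-fold lower in Pdgfrb-KO (log2 difference -2.18, SE 0.147, limma adjusted p = 5.65e-06). Each of the 3 calls held under all 18 alternatives tried. An antisense gene, Gm26771, overlaps Sfrp2 and had at most 23 normalized counts in any library.

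Sfrp2 was set beside the other markers of the fibroblastic cells that are known to express it. Pdgfra, the receptor commonly used to mark fat progenitors, had 4322, 4580, 4844 and 3726 normalized counts in 12-month controls, against 2388, 3302, 3351 and 2900 in 2-month controls, and was higher at 12 months (log2 difference 0.56, limma adjusted p = 0.00747). In Pdgfrb-KO it had 4739, 4838, 6356 and 4039, which overlapped the 12-month controls (log2 difference 0.18, limma adjusted p = 0.461). Sfrp2 and Pdgfra thus moved in opposite directions between the ages. For each 100 Pdgfra counts there were 16.1 to 37.7 Sfrp2 counts in Pdgfrb-KO, 62.9 to 79.7 in 12-month controls and 164 to 247 in 2-month controls, a ratio chosen after the values were seen. This ratio rests on Pdgfra alone, which was itself higher at 12 months. No ratio to other fibroblastic markers or to their sum was taken. Of the 18 fibroblastic markers, 9 were higher and 4 lower at 12 months than at 2 months, and 4 were higher and 4 lower in Pdgfrb-KO than in 12-month controls. The summed level of the list was 624416 to 1052179 in Pdgfrb-KO, 434221 to 547394 in 12-month controls and 843085 to 1010096 in 2-month controls, and it was made up largely of collagens. Col1a1, the main fibrillar collagen chain, was lower at 12 months (log2 difference -1.81, limma adjusted p = 1.02e-06) and higher in Pdgfrb-KO than in 12-month controls (log2 difference 1.54, limma adjusted p = 0.000662). Macrophage markers ran in the opposite order to Sfrp2, with sums of 58834 to 95400 in Pdgfrb-KO, 28746 to 41488 in 12-month controls and 13858 to 20456 in 2-month controls. The part of these cell types in the Sfrp2 values was not tested.

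Sfrp4 (ENSMUSG00000021319, chr13:19623104-19632994, plus strand), another Wnt-binding member of the family, differed with genotype. It had 814, 877, 714 and 888 normalized counts in Pdgfrb-KO libraries, 1179, 1220, 998 and 1404 in 12-month controls, and 837, 1158, 1397 and 1037 in 2-month controls. The Pdgfrb-KO libraries were all below the 12-month controls but overlapped the 2-month controls. Means were 823 ± 79.8 in Pdgfrb-KO and 1200 ± 167 in 12-month controls (SD, n = 4 each), 1.45-fold lower in Pdgfrb-KO (log2 difference -0.54, SE 0.125, limma adjusted p = 0.0224). Between the ages the interval of the difference ran from -0.19 to 0.45 on the log2 scale (12-month minus 2-month controls, limma adjusted p = 0.551). The Pdgfrb-KO call passed under 12 of 18 alternatives. It was lost without trend and robust variance estimation (limma adjusted p = 0.0515) and when any of 5 libraries was left out: 12-month control replicates 1, 2 or 4 (limma adjusted p = 0.0592, 0.0591 and 0.0596) or Pdgfrb-KO replicates 1 or 3 (0.0582 and 0.0528).

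Frzb (ENSMUSG00000027004, chr2:80411970-80447625, minus strand), also called Sfrp3, was scarce. It had 13, 12, 12 and 10 normalized counts in 12-month controls, against 29, 16, 33 and 29 in 2-month controls. The groups did not overlap, although the lowest 2-month library came close to the highest 12-month library. Frzb was 2.11-fold lower at 12 months (log2 difference -1.08, SE 0.289, limma adjusted p = 0.02). The call was lost without 2-month control replicate 3 or 4 (limma adjusted p = 0.0665 and 0.0583) and in a fit over all 12 libraries (0.126). In Pdgfrb-KO the values were 6, 29, 10 and 4, so that 1 library was near the 2-month level and the others at or below the 12-month controls (log2 difference from 12-month controls -0.29, 95% interval -1.43 to 0.84, limma adjusted p = 0.756). The 8 Schwann cell markers were all lower at 12 months, with a summed level of 4345 to 5000 in 12-month controls, against 9893 to 12744 in 2-month controls, and none was at 0. Their part in the Frzb difference was not tested.

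Sfrp1 and Sfrp5 did not pass in either comparison. Sfrp1 (ENSMUSG00000031548, chr8:23411502-23449632, plus strand) had 308, 349, 548 and 524 normalized counts in Pdgfrb-KO, 524, 418, 525 and 400 in 12-month controls, and 309, 521, 480 and 388 in 2-month controls. All 3 groups overlapped, and the interval of the Pdgfrb-KO difference from 12-month controls was -0.57 to 0.29 on the log2 scale (limma adjusted p = 0.677). For age it was -0.20 to 0.51 (12-month minus 2-month controls, adjusted p = 0.519, limma). Sfrp5 (ENSMUSG00000018822, chr19:42197971-42202252, minus strand), studied in mouse fat as an antagonist of Wnt5a, had 221, 219, 119 and 117 normalized counts in Pdgfrb-KO, 221, 250, 198 and 166 in 12-month controls, and 285, 202, 275 and 264 in 2-month controls. Pdgfrb-KO libraries split into a pair at the level of the 12-month controls and a pair below every other library. The log2 difference was -0.36 for Pdgfrb-KO against 12-month controls (limma adjusted p = 0.379) and -0.30 for 12-month against 2-month controls (limma adjusted p = 0.178).

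Per kilobase of exon, which lets levels be compared between genes, Sfrp2 was the most abundant member in every group. It averaged 618 normalized counts per kb in Pdgfrb-KO, 1437 in 12-month controls and 2744 in 2-month controls. Sfrp4 came next at 197 per kb in Pdgfrb-KO, 287 in 12-month controls and 265 in 2-month controls. Sfrp2 did not overlap Sfrp4 in any group, and Sfrp4 overlapped Dkk2, the next in order, in 2-month controls only. By mean level, Sfrp1, Sfrp5, Dkk2, Dkk3 and Axin2 averaged 64.2 to 131 per kb in Pdgfrb-KO, 79.9 to 109.9 in 12-month controls and 97.1 to 141 in 2-month controls, lower than Sfrp4, and each overlapped its neighbour in that order. Wnt5a, at 33.8 per kb in Pdgfrb-KO, 39.1 in 12-month controls and 41.8 in 2-month controls, was below all of these in each group, and Frzb and Wif1 were lowest. Of the summed level per kb of the 5 Frizzled-related members, Sfrp2 made up 56.7 to 64.9% in Pdgfrb-KO, 71.9 to 77.3% in 12-month controls and 81.0 to 86.4% in 2-month controls. The sum itself was 837 to 1179 per kb in Pdgfrb-KO, 1860 to 2053 in 12-month controls and 3145 to 3368 in 2-month controls, and neither the share nor the sum overlapped between groups.

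**Figure D2:**
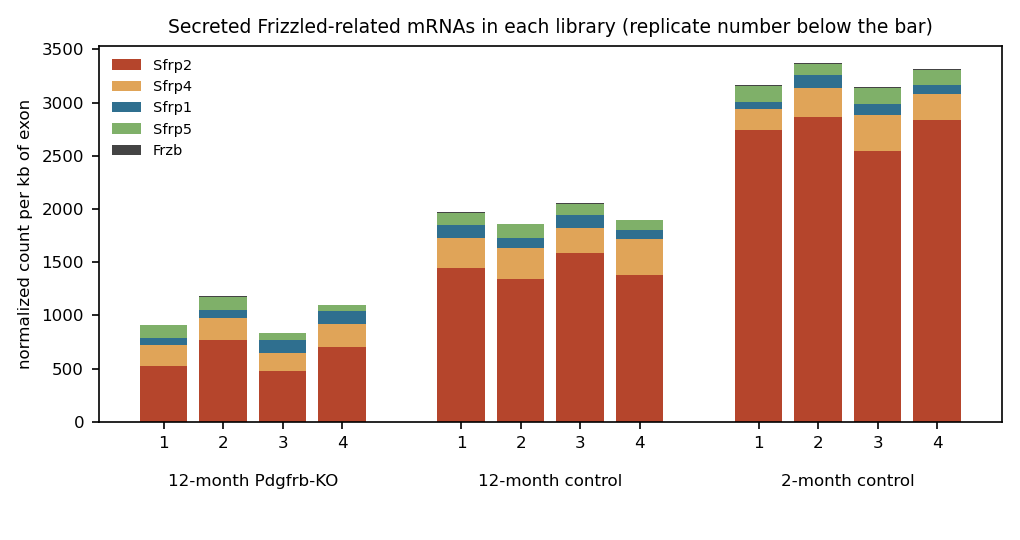
Stacked bars of the 5 secreted Frizzled-related members in each library, in normalized counts per kb of exon (vertical axis, from 0), with the 4 libraries of each group side by side. The bars reach 837 to 1179 in Pdgfrb-KO, 1860 to 2053 in 12-month controls and 3145 to 3368 in 2-month controls, and Sfrp2 is the largest block in each.

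Neither Dickkopf member passed in either comparison. Dkk2 (ENSMUSG00000028031, chr3:132085292-132180304, plus strand), a ligand of Lrp5 and Lrp6, had 281, 372, 295 and 295 normalized counts in Pdgfrb-KO, 368, 372, 303 and 347 in 12-month controls, and 307, 441, 784 and 558 in 2-month controls. The 2-month libraries were spread widely, and the lowest of them lay within the 12-month range. The log2 difference between 12-month and 2-month controls was -0.51 (SE 0.222, limma adjusted p = 0.116), and without 2-month control replicate 1 it passed (adjusted p = 0.015, limma). Against 12-month controls the Pdgfrb-KO difference was -0.165 on the log2 scale (95% interval -0.45 to 0.12, limma adjusted p = 0.452). Dkk3 (ENSMUSG00000030772, chr7:112116017-112159057, minus strand), a divergent family member, had 401, 471, 394 and 494 in Pdgfrb-KO, 298, 292, 424 and 427 in 12-month controls, and 385, 401, 484 and 397 in 2-month controls. It was the only member with a positive Pdgfrb-KO difference, of 0.30 on the log2 scale, and that difference did not pass (95% interval -0.05 to 0.66, limma adjusted p = 0.249). Wif1 (ENSMUSG00000020218, chr10:121033960-121100650, plus strand) had 0 to 10 normalized counts in Pdgfrb-KO, 2 to 5 in 12-month controls and 1 to 6 in 2-month controls. It was below the minimum level and was not tested in any comparison.

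Axin2 (ENSMUSG00000000142, chr11:108920349-108950783, plus strand), a scaffold of the β-catenin destruction complex, is itself transcribed in response to β-catenin and is widely used as a Wnt readout. It had 294, 304, 444 and 373 normalized counts in Pdgfrb-KO, 493, 290, 457 and 519 in 12-month controls, and 663, 749, 735 and 736 in 2-month controls. All 8 libraries of 12-month mice were below all 2-month libraries. Axin2 averaged 440 ± 103 normalized counts in 12-month controls and 721 ± 39 in 2-month controls (SD, n = 4 each), 1.68-fold lower at 12 months (log2 difference -0.745, SE 0.158, 95% interval -1.09 to -0.40, limma adjusted p = 0.00628). This held under all 18 alternatives. In Pdgfrb-KO it averaged 354 ± 69.7 and overlapped the 12-month controls, whose replicate 2 was the lowest of all 12 libraries (log2 difference -0.30, 95% interval -0.74 to 0.14, limma adjusted p = 0.368). Set against 2-month controls, Pdgfrb-KO was 2.06-fold lower (log2 difference -1.04, SE 0.136, limma adjusted p = 0.000211).

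Wnt5a (ENSMUSG00000021994, chr14:28504750-28527448, plus strand), a ligand best known for β-catenin-independent signalling, had 187, 279, 343 and 249 normalized counts in Pdgfrb-KO, 307, 279, 338 and 299 in 12-month controls, and 249, 418, 394 and 246 in 2-month controls. The groups overlapped throughout, with the 12-month controls the tightest of them. The log2 difference was -0.24 for Pdgfrb-KO against 12-month controls (95% interval -0.63 to 0.15, limma adjusted p = 0.413) and -0.06 for 12-month against 2-month controls (95% interval -0.44 to 0.33, limma adjusted p = 0.844).

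Pdgfrb-KO libraries were also set against 2-month controls, which mixes genotype with age and shares libraries with both other comparisons. Sfrp2, Sfrp4, Sfrp5, Frzb, Dkk2 and Axin2 were lower in Pdgfrb-KO, 6 of 9 members tested beside 22.7% of 16370 genes lower, 22.4% higher and 45.1% in either direction. Only Sfrp2 and Axin2 had groups that did not overlap, beside 20.4% of all genes lower without overlap and 40.8% in either direction, and their calls held under all 18 alternatives. The other calls had limma adjusted p-values between 0.0369 and 0.048, with log2 differences of -0.41 for Sfrp4, -0.65 for Sfrp5, -1.37 for Frzb and -0.67 for Dkk2. They passed under 10 of 18 alternatives for Sfrp4, 11 for Sfrp5, 11 for Dkk2 and 7 of 17 for Frzb. For Sfrp1, Dkk3 and Wnt5a the intervals were -0.46 to 0.48, -0.19 to 0.34 and -0.78 to 0.20.

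**Figure D3:**
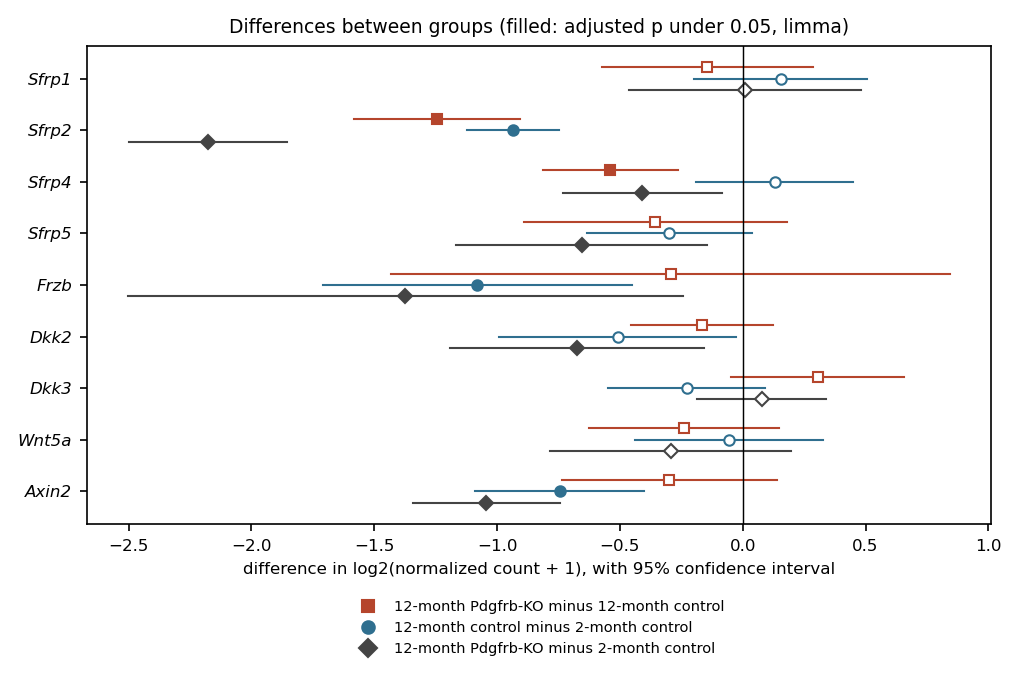
Differences between groups in log2(normalized count + 1) for the 9 members tested (horizontal axis, lines are 95% confidence intervals, filled symbols have a limma adjusted p under 0.05), with squares for Pdgfrb-KO minus 12-month control, circles for 12-month minus 2-month control and diamonds for Pdgfrb-KO minus 2-month control. Sfrp2 is filled in all 3, at -1.24, -0.93 and -2.18.

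Over the 12 libraries, the genes most like Sfrp2 in log2 level were Hr (Pearson r = 0.989), Hmcn1 (0.976), which encodes a hemicentin of the extracellular matrix, and Camk2g (0.971). For Axin2 they were Hs3st3b1 (0.981), Chd4 (0.979) and Peli1 (0.979). These describe 12 libraries of 3 groups, and the group differences contribute to them. Within the members, Sfrp2 and Axin2 had r = 0.805, while Sfrp2 with Sfrp1 had 0.001.

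The rest of the pathway was read in a list of 118 genes beside the members, of which 101 were tested in each comparison. At 12 months 13 were higher and 26 lower than in 2-month controls (38.6% of those tested, beside 22.7% of all genes), and in Pdgfrb-KO 1 was higher and 14 lower than in 12-month controls (14.9% beside 9.42%). Beside these age counts, macrophage markers were higher in 6 of 8 at 12 months. Mural cell markers were lower in 6 of 10 and higher in 1, with sums of 28428 to 48777 in 12-month controls and 45084 to 51898 in 2-month controls. Mature adipocyte markers were higher in 6 of 10, with sums of 60342 to 105525 in 12-month controls and 56277 to 74711 in 2-month controls. No marker of these lists was at 0, and their part in the counts was not tested. The counts include 3 genes, Wnt16 and Fzd9 for age and Ascl2 for Pdgfrb-KO, that reached the minimum level only through the group in which they were high, so these 3 add no support. The counts also fell when some single libraries were left out. Each such fit has fewer libraries to test, and why the counts fell was not tested. The 26 became 13 without 2-month control replicate 2, and the 14 became 3 without 12-month control replicate 2. Over all genes, the Pdgfrb-KO calls fell from 1539 to 885 without 12-month control replicate 2. The age calls over all genes fell from 3727 to 2356 without 2-month control replicate 4. The 13 genes higher at 12 months became 7 without 2-month control replicate 4. The 1 higher in Pdgfrb-KO became 0 when any single Pdgfrb-KO library was left out, since Ascl2 then no longer reached the minimum level.

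Ligands were among the genes that moved in both comparisons. Of 11 tested for age, 5 were higher at 12 months (Wnt2, Wnt9a, Wnt10b, Wnt11 and Wnt16) and 1 lower (Wnt6), beside 11.3% higher and 11.4% lower over all genes. Wnt16 is in that count only because its 12-month control libraries passed the minimum level, at 19, 14, 12 and 20 normalized counts, against 5, 3, 8 and 4 in 2-month controls. Of 12 tested in Pdgfrb-KO, Wnt2, Wnt2b, Wnt10b and Wnt11 were lower and 0 higher than in 12-month controls, beside 4.46% lower and 4.96% higher over all genes. Wnt10b, a ligand known to block adipocyte differentiation, had 233, 285, 158 and 184 normalized counts in Pdgfrb-KO, 347, 406, 316 and 544 in 12-month controls, and 165, 219, 252 and 107 in 2-month controls. The 12-month controls were above both other groups, which overlapped each other. The log2 difference was -0.91 for Pdgfrb-KO against 12-month controls (limma adjusted p = 0.0243) and 1.15 for 12-month against 2-month controls (limma adjusted p = 0.00623). Wnt2 and Wnt11 had the same shape, with log2 differences for Pdgfrb-KO of -1.22 and -0.85 (limma adjusted p = 0.0202 and 0.0199) and for age of 1.18 and 1.01 (limma adjusted p = 0.00221 and 0.000795). Wnt2b was scarce, at 3 to 17 normalized counts in Pdgfrb-KO and 18 to 27 in 12-month controls, and its call (limma adjusted p = 0.0444) held under 8 of 17 alternatives. The Pdgfrb-KO calls of Wnt2, Wnt10b and Wnt11 held under 15, 14 and 16 of 18 alternatives, and all 3 were lost without 12-month control replicate 2 (limma adjusted p = 0.0555, 0.0606 and 0.0593). Porcn, the acyltransferase that lets Wnts be secreted, was lower in Pdgfrb-KO (56, 64, 63 and 75 normalized counts, against 98, 131, 111 and 100 in 12-month controls, limma adjusted p = 0.0264). That call held under 12 of 18 alternatives. Wls, the Wnt carrier, did not pass in Pdgfrb-KO against 12-month controls (log2 difference -0.10, limma adjusted p = 0.586). It was higher at 12 months than at 2 months (log2 difference 0.386, limma adjusted p = 0.0305). It was also higher in Pdgfrb-KO than in 2-month controls (0.282, limma adjusted p = 0.0479). These 2 Wls calls held under 11 and 7 of 18 alternatives.

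Of 16 receptors tested for age, 7 were lower and 2 higher at 12 months, beside 11.4% lower and 11.3% higher over all genes. Of 15 tested in Pdgfrb-KO, 2 were lower and 0 higher than in 12-month controls, beside 4.46% lower and 4.96% higher. The 7 receptors lower for age include Fzd9, at 13, 13, 14 and 15 normalized counts in 2-month controls and 0, 5, 4 and 7 in 12-month controls. It reached the minimum level only through its 2-month control libraries, so it adds no support. Fzd7, a Frizzled receptor, had 259, 388, 391 and 354 normalized counts in Pdgfrb-KO, 513, 552, 531 and 449 in 12-month controls, and 881, 758, 812 and 742 in 2-month controls. Its 3 groups lay in the same order as those of Sfrp2 and did not overlap (limma adjusted p = 0.0363 for Pdgfrb-KO against 12-month controls and 0.000801 for age). Fzd1 instead was higher at 12 months (log2 difference 0.63, limma adjusted p = 0.00143) and lower in Pdgfrb-KO than in 12-month controls (log2 difference -0.50, limma adjusted p = 0.0377). The Fzd1 and Fzd7 calls in Pdgfrb-KO held under 9 and 13 of 18 alternatives. Ptk7, a co-receptor, was lower at 12 months (log2 difference -1.08, limma adjusted p = 0.000265). Among other inhibitors, Sostdc1, which binds Lrp co-receptors, and Apcdd1 were lower at 12 months (log2 difference -1.11 and -0.45), and Tpbg was higher (1.21). Kremen1, a Dickkopf receptor, was lower in Pdgfrb-KO than in 12-month controls (log2 difference -0.43). The Sostdc1 call held under 14 of 17 alternatives and the Kremen1 call under 14 of 18.

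**Figure D4:**
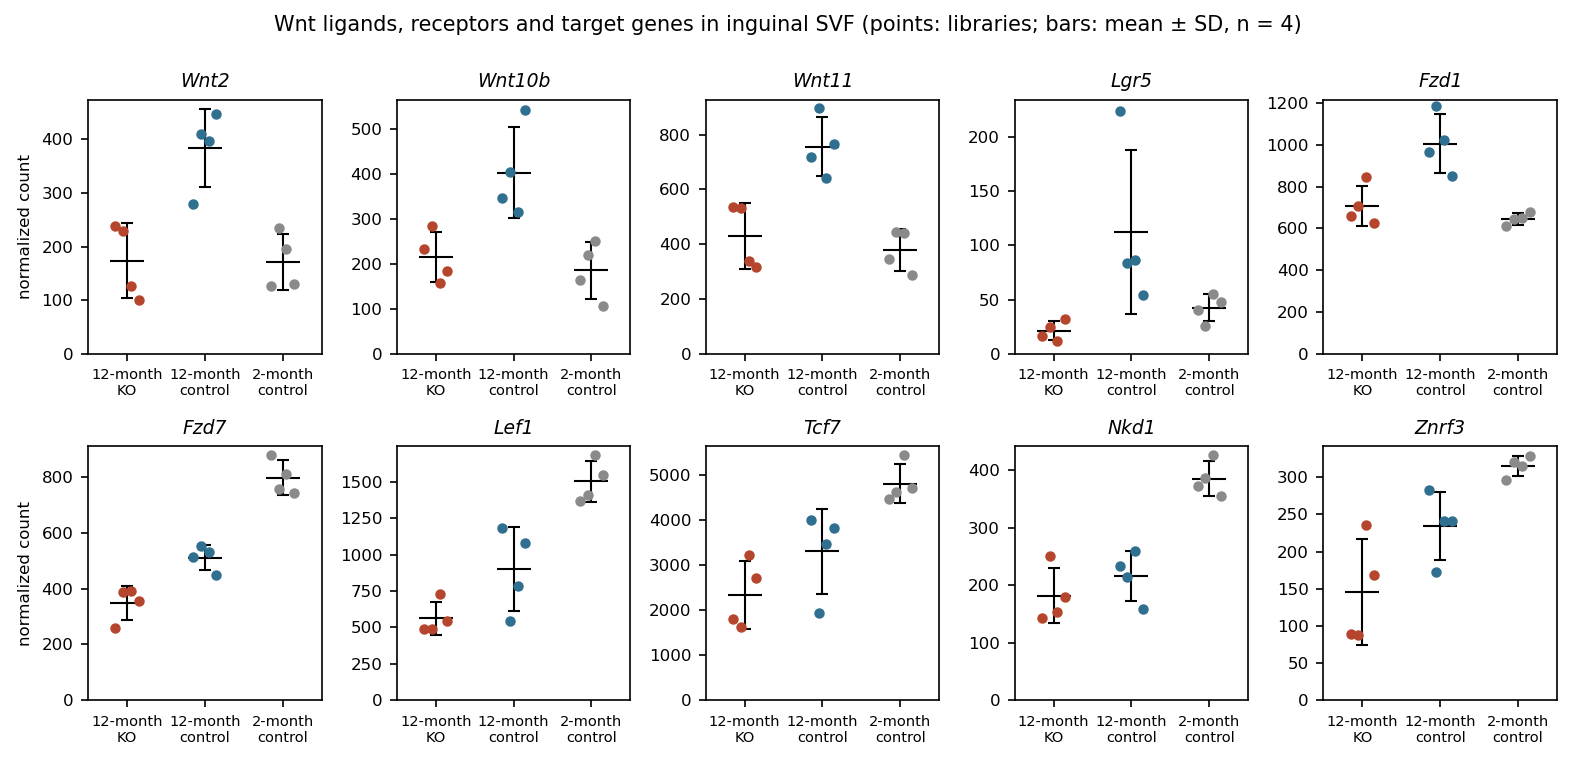
Normalized counts (vertical axes, from 0) of 10 Wnt ligands, receptors and target genes in each library of the 3 groups (horizontal axes), with a point per library and a bar for mean ± SD (n = 4). Wnt2, Wnt10b and Wnt11 are highest in 12-month controls, while Fzd7, Lef1, Tcf7 and Nkd1 are highest in 2-month controls.

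Of 17 other Wnt target genes tested, 6 were lower and 3 higher at 12 months, beside 11.4% lower and 11.3% higher over all genes. Nkd1, which like Axin2 is a feedback inhibitor induced by the pathway, had 233, 214, 260 and 158 normalized counts in 12-month controls, against 372, 387, 427 and 355 in 2-month controls (log2 difference -0.85, limma adjusted p = 0.00199). Lef1, a TCF/LEF factor and target, had 1187, 546, 787 and 1083 in 12-month controls, against 1370, 1413, 1686 and 1549 in 2-month controls (log2 difference -0.80, limma adjusted p = 0.0139), and Tcf7 passed more narrowly (log2 difference -0.59, limma adjusted p = 0.0437, lost in 9 of 18 alternatives). Both separated the ages without overlap, and within the 12-month controls both were lowest in replicate 2, the library with the lowest Axin2. Znrf3, a ubiquitin ligase that removes Frizzled receptors, Ccn4 and Apcdd1 were the other targets that were lower, and Lgr5, Nkd2 and Cd44 were higher. Of these calls, that of Znrf3 held under 7 of 18 alternatives, Lgr5 under 9, Nkd2 under 11, Cd44 under 10, Apcdd1 under 13 and Ccn4 under 16 of 17. Lef1 and Tcf7 are also expressed by T cells. Of 8 lymphocyte markers, 1 was lower (Cd4, log2 difference -0.80, limma adjusted p = 0.00805) and 1 higher (Nkg7), the summed level was 13150 to 20919 in 12-month controls and 13886 to 18077 in 2-month controls, and none was at 0. Without 12-month control replicate 2, the log2 age differences became -0.573 for Cd4, -0.578 for Lef1, -0.351 for Tcf7 and -0.557 for Axin2. The part of lymphocytes in the Lef1 and Tcf7 differences was not tested.

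In Pdgfrb-KO, 3 of 18 target genes were lower than in 12-month controls and 1 was higher, beside 4.46% lower and 4.96% higher over all genes. Lgr5, the R-spondin receptor that also marks several stem cells, had 16, 25, 12 and 32 normalized counts in Pdgfrb-KO, against 224, 84, 87 and 54 in 12-month controls (log2 difference -2.23, SE 0.43, limma adjusted p = 0.00961), and this call held under all 18 alternatives. Myc (log2 difference -0.43, limma adjusted p = 0.0205) and Sox9 (-0.81, limma adjusted p = 0.0312) were the others that were lower. The Myc and Sox9 calls held under 16 and 13 of 18 alternatives. Ascl2, a transcription factor, had 24, 71, 23 and 20 normalized counts in Pdgfrb-KO and 1, 8, 4 and 7 in 12-month controls. It reached the minimum level only through its 4 Pdgfrb-KO libraries and was not tested once any of them was left out, so its difference is given as values. Nkd1, Lef1 and Tcf7 did not pass in Pdgfrb-KO (limma adjusted p = 0.455, 0.108 and 0.25). Other cell markers also differed in this comparison. Macrophage markers were higher in 7 of 8, with sums of 58834 to 95400 in Pdgfrb-KO and 28746 to 41488 in 12-month controls. Skeletal muscle markers were lower in 8 of 8, with sums of 688 to 1765 in Pdgfrb-KO and 3083 to 7192 in 12-month controls. Of 10 mural cell markers, 0 passed, although 9 had a log2 difference below 0. Their sums were 24312 to 30289 in Pdgfrb-KO and 28428 to 48777 in 12-month controls. No marker of these lists was at 0, and the part of these cell types in the pathway counts was not tested.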

How the data were processed

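RNA sequencing covered 12 libraries, and groups were taken from the sample labels. The authors prepared polyadenylated RNA with a directional kit. Per the submitters' processing notes, Trim Galore 0.6.0, cutadapt, FastQC, STAR 2.7.0e, build GRCm38 and DESeq2 1.26.0 were used. The counter, its annotation release and its strand setting are not given in the sources used here. Each deposited value is a score, a count that the authors divided by a library size factor and rounded to whole numbers, so no count model was fitted. The 12-month control values were equal in both deposited tables in 100% of 55536 genes. Estimated counts per library come from the steps that division and rounding leave in low values.

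Values were tested as log2(value + 1) with limma 3.58.1 (R 4.3.3, trend, robust, two-sided, Benjamini-Hochberg over all genes tested) on the 8 libraries of each comparison, for genes with at least 10 in at least 4 of them. Fold changes are on this scale, which understates changes of low genes. The test was tried on simulated data in which genes varied independently, and no result here rests on that trial. Pdgfrb also had an exact permutation test. Lengths and coordinates come from GENCODE vM21 and promoter windows from RefSeq. Tables and figures came from scripts in Python 3.11.15 (pandas 2.3.3, matplotlib 3.10.9) and permutations from scipy 1.17.1 with numpy 2.4.6.

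The members and lists were chosen with earlier results of these data known. Named were all members, Pdgfrb, from each pathway list the genes past the threshold (at most 4 per comparison, ranked by p) with 2 or fewer others, the 3 genes most like a member (mean of at least 100, 12 libraries), genes that make up a count of at most 5, and markers set beside a member. Fzd1, Lef1, Nkd1, Tcf7 and others of these are also described in comparisons where they were not among those first 4. Alternatives were other pseudocounts (0.5 and 5), no filter, a mean of at least 50, quantile and upper quartile scaling, no trend or robust estimation, array weights, a replicate block, 1 fit over all 12 libraries, and leaving out each library. The genes most like Frzb are not reported here. The labels call the libraries biological replicates.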

Additional observations from a re-analysis of the deposited data

Results flagged for a closer look

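In each group of 4 libraries, the highest or lowest value was examined for a gap to its nearest neighbour above Dixon's 95% critical share of the group's range. Of 192 groups of members and other named genes tested, 8 had such a value, and chance gives about 1 in 20 groups. Among the members, Dkk2 reached 372 normalized counts in 1 Pdgfrb-KO library that stood above the other three, Dkk3 reached 484 in 1 2-month control library above the rest, and Axin2 had 663 in 1 2-month control library below the rest. Without any single 2-month control library, the Axin2 difference between the ages still passed. Among other pathway genes, Ascl2 reached 71 in 1 Pdgfrb-KO library and Daam2, a formin of the planar cell polarity branch, had 367 in 1 Pdgfrb-KO library, the lowest of its group, each far from the others. Wnt4 reached 95 and Wnt5b reached 174 in 1 2-month control library each, the others of that group lying close together. Nkg7, a lymphocyte marker, reached 697 in 1 2-month control library above the rest.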

How the results depend on the processing

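Sfrp2 was lower in all 3 comparisons, and Axin2 lower in both comparisons with 2-month controls, under every alternative run. Of 483 member results under alternatives, 431 kept direction and side of the threshold and 41 lost it. Of 95 calls of other named genes, 47 held under every alternative run. Directions turned only where differences were small. For age, Wnt5a (-0.06) ran from -0.18 to 0.078 when 1 library was left out. For Pdgfrb-KO against 12-month controls, Sfrp1 (-0.14) ran from -0.27 to 0.004 and Frzb (-0.29) from -0.80 to 0.058. Against 2-month controls, Sfrp1 (0.01) ran from -0.13 to 0.16, and was -0.036 with quantile scaling and -0.044 with array weights. The genes called for age ran from 2356 (without 2-month control replicate 4) to 3961 when a library was left out, and for Pdgfrb-KO against 12-month controls from 859 (without 12-month control replicate 3) to 1878, with 2542 in 1 fit over all 12 libraries, against 1539. Members called numbered 1 to 2 in that comparison when a library was left out and 1 without trend and robust estimation, and against 2-month controls 2 to 6 when a library was left out and 2 without trend and robust estimation. Pdgfrb in Pdgfrb-KO ran from -0.91 to -0.62, at an exact permutation p of 0.0571, the smallest that 3 against 4 libraries allow. The causes were not tested.

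Replicate numbers are shared between groups. Same-numbered libraries had deviations correlated at -0.275 to 0.375, and matched their own number best in 1, 2 and 1 of 4 pairs in the 3 comparisons. The labels give no pairing, and these values do not settle whether the libraries share more than a number. With a replicate block, 2380 genes were called for Pdgfrb-KO against 12-month controls, where 1539 were called without it. Against 2-month controls 3 members were called with the block and 6 without it.

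At this depth Wif1 and, in part, Frzb are limited by low counts.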
